A study of Mus musculus with 8 samples.

Results

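The enzymes and carriers of glycolysis, pyruvate and lactate handling and the pentose phosphate pathway were examined in lymphatic endothelial cells from inflamed and untreated mouse ear skin. The set holds 42 genes, chosen by name and grouped by the pathway step they serve. A probe set is the group of array probes that reads 1 transcript. Of the 42 genes, 37 were read by at least 1 probe set annotated to that gene alone outside the array's controls, and 33 of these passed the filter on dim signals and were tested among 10843 genes. Slc2a3, Aldoc, Eno2 and Pdk4 were measured but lay under the filter. Gapdh was read alone only by control probe sets, and Gpi1, Pfkfb1, Eno1 and G6pdx are not analysed here.

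Inflamed samples came from female FVB mice with contact hypersensitivity to oxazolone, a skin allergen applied at 2% to abdomen and paws. After 5 days their ears were challenged with 10 µl of 1% oxazolone on each side, and the tissue was taken 24 hours later. Untreated samples came from healthy female FVB mice. Each group held 4 samples, each pooled from 3 mice of 8 to 10 weeks, and the samples form 4 pairs sorted and extracted on the same day. The cells were sorted as CD31+, podoplanin+ and CD45-, the surface pattern of lymphatic endothelium without leukocytes, and 1 array was hybridised per sample.

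Glycolysis splits glucose into pyruvate in the cytosol. Pyruvate either becomes lactate, which leaves the cell through monocarboxylate transporters, or enters the mitochondrion, where the pyruvate dehydrogenase complex turns it into acetyl-CoA. The pentose phosphate pathway branches off after hexokinase and supplies NADPH and ribose. Endothelial cells are known to draw much of their ATP from glycolysis, and PFKFB3, which makes the strongest activator of phosphofructokinase, is known to set its pace in endothelial cells.

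In inflamed skin, transcripts for 7 of the 33 tested genes rose and none fell. Those that rose were Hk2 (hexokinase), Pfkp (phosphofructokinase), Pfkfb3, Pgk1 (phosphoglycerate kinase), Pkm (pyruvate kinase), Ldha (lactate dehydrogenase) and Slc16a1 (a lactate carrier). The rises ran from 2.01-fold for Pgk1 to 15.0-fold for Pfkfb3. No tested gene of the pyruvate dehydrogenase complex, its kinases or the pentose phosphate pathway passed the threshold. The complex with its kinases held 7 tested genes and the pentose phosphate pathway 6. Over all tested genes 3.91% rose and 3.02% fell, so few calls could be expected in groups of this size. Differences are given throughout on the log2 signal scale as inflamed minus untreated, averaged over the pairs, with a standard error (SE), and the threshold is a Benjamini-Hochberg adjusted p of 0.05 from a limma fit over all genes with the pair as a block.

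The 7 genes that rose were 21.2% of the tested members, where 3.91% of all tested genes rose. None of the 33 fell in the limma fit, and 3.02% of all genes did. At an unadjusted p under 0.05 the members numbered 11, or 33.3%, where 22.0% of all genes lay under it in either direction, and Pdk2 was the 1 of these members with a negative difference. Every inflamed array lay above every untreated array for 8 members, or 24.2%, and for 6.30% of all genes. Of these 8, Pfkfb4 passed the filter only through its inflamed arrays, and the 7 that rose had untreated means above it. The reverse held for 1 member, Pgls, or 3.03%, and for 6.84% of all genes. The median difference was 0.39 over the members and -0.09 over all genes. Of the 33 differences 25 were positive and 8 negative. Centring each array on its own median moved the median over all genes to 0.22 and turned Pfkl, Pfkm, Aldoa and Eno3 positive. In RNA of sorted cells, fewer cells of a type and less RNA per cell cannot be told apart. The count of 7 fell to between 3 and 5 when 1 pair was left out (3 without pair 1, 4 without pair 2, 3 without pair 3 and 5 without pair 4), and to 1, Pfkfb3, without the intensity trend in the variance.

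**Figure D1:**
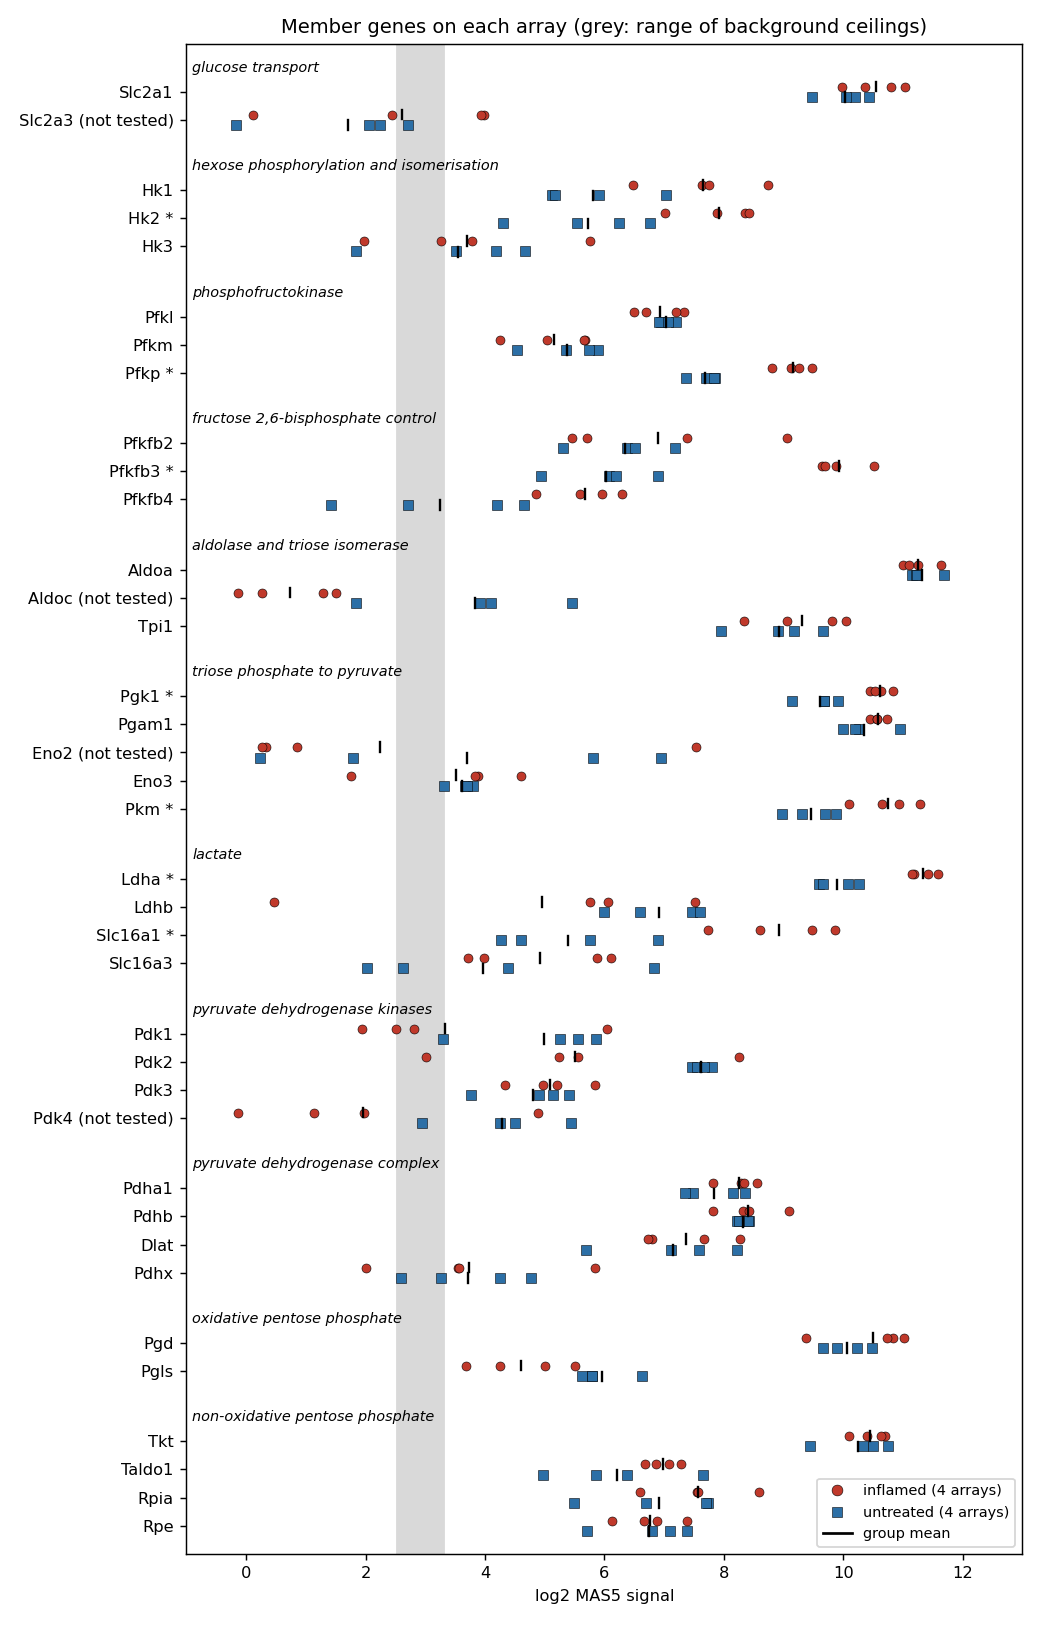
Log2 MAS5 signal (horizontal axis) of each member with a probe set of its own on the 4 inflamed arrays (circles) and the 4 untreated arrays (squares), with group means as vertical bars, the members in order of the pathway and an asterisk at those past the threshold. For the 7 marked genes every inflamed array lies to the right of every untreated array, and the grey band spans the background ceilings of 2.53 to 3.31.

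Mean signals of the arrays ran from 126.2 to 160.4, and 53.5% to 62.6% of probe sets exceeded the background ceiling, the 95th percentile of bacterial control probe sets on each array. All 10 measured markers of lymphatic endothelium lay above background in both groups, and their summed signal was lower in the inflamed sample of all 4 pairs (14226 to 25370 in inflamed and 24538 to 32404 in untreated samples). Mmrn1, Reln, Tek and Nrp2 were lower and past the threshold. The markers did not all run 1 way. Pdpn (0.56, higher in the inflamed sample of all 4 pairs) and Cdh5 (0.50, higher in 3) had positive differences without passing. Prox1 (-1.44), Pecam1 (-0.72), Flt4 (-0.37) and Lyve1 (-0.18) had negative ones and did not pass either. Neutrophil markers summed to 2003 to 3267 in inflamed and 208 to 637 in untreated samples, higher in the inflamed sample of all 4 pairs. S100a8, S100a9 and Lcn2, all 3 that could be tested, were higher, but S100a8 and S100a9 passed the filter only through their inflamed arrays. Csf3r and Cxcr2 were under background on every untreated array, Ngp on every inflamed array and Ltf on all 8 arrays. Camp exceeded background on 3 inflamed arrays and 1 untreated array, and Mmp8 and Mpo on 1 array of each group. Their untested differences were 0.76 for Camp, -0.53 for Mmp8 and 0.84 for Mpo, which was lower in the inflamed sample of 3 pairs. Monocyte and macrophage markers summed to 796 to 2804 in inflamed and 522 to 1128 in untreated samples. The sum was higher in the inflamed sample of 3 pairs, with 2 of 9 tested genes higher (Aif1 and Fcer1g). Both passed the filter only through their inflamed arrays. Adgre1, which was not tested, differed by -1.02 and was lower in the inflamed sample of 3 pairs. Csf1r differed by 0.46 but was also lower in 3 pairs, and Mrc1 differed by 0.09 and was higher in 2 pairs. Every other marker of this list had a positive difference. Fibroblast markers summed to 10500 to 24511 in inflamed and 4430 to 20264 in untreated samples, higher in the inflamed sample of all 4 pairs. Of 9 tested, 1 was higher (Lum). Keratinocyte markers summed to 165 to 1367 in inflamed and 990 to 4723 in untreated samples, higher in the inflamed sample of 1 pair. Of 6 tested, 3 were lower (Krt5, Krt10 and Krt2), and Krt10 and Krt2 passed the filter only through their untreated arrays. The part of these cells in the differences below was not tested.

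At glucose entry and phosphorylation, Hk2 rose. On their chosen probe sets Slc2a1 and Hk1 lay higher in the inflamed sample of all 4 pairs without passing the threshold. Hk2, on chromosome 6, is the regulated hexokinase of muscle and of many activated cells and traps glucose as glucose 6-phosphate. Its log2 signal was 7.89, 8.36, 7.02 and 8.42 in inflamed pairs 1 to 4, against 6.77, 6.24, 4.31 and 5.55 in the untreated samples. The groups did not overlap, and untreated pair 3 was the lowest array. Hk2 averaged 7.92 ± 0.65 in inflamed samples and 5.72 ± 1.06 in untreated ones (SD, n = 4 each), a difference of 2.20 ± 0.53 (SE) or 4.60-fold, with an adjusted p of 0.038. The call ended when any 1 of the 4 pairs was left out (adjusted p up to 0.124) and without the pair as a block (0.0525).

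Slc2a1, the basal glucose transporter of endothelium, had 9.97, 11.03, 10.37 and 10.80 in inflamed samples, against 9.48, 10.19, 10.04 and 10.43 in untreated samples. The groups overlapped across pairs, although each inflamed sample exceeded its own partner. The difference was 0.51 ± 0.20, with a 95% interval of 0.07 to 0.95 and an adjusted p of 0.165, and with each array centred on its median it was 0.81 ± 0.21 with an adjusted p of 0.0408. The other Slc2a1 probe sets gave 0.77 and 0.58, each with 1 pair lower in the inflamed sample. Slc2a3, a transporter of high affinity for glucose, was dim, at 3.98, 0.11, 3.93 and 2.44 in inflamed samples, against -0.16, 2.06, 2.71 and 2.25 in untreated samples. It exceeded background on 2 inflamed arrays and on no untreated array.

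Hk1, the housekeeping hexokinase, had 6.48, 7.63, 7.75 and 8.74 in inflamed samples, against 5.13, 7.04, 5.91 and 5.18 in untreated samples. Only inflamed pair 1 fell within the untreated range. The difference was 1.83 ± 0.60 (adjusted p = 0.113), and its 2 probe sets gave 1.82 and 1.83. The probe set not chosen was lower in the inflamed sample of pair 1, by -1.23. Hk3, the hexokinase found mainly in leukocytes, differed by 0.14 ± 0.84 (adjusted p = 0.953) on its tested probe set, with 1.97, 3.78, 3.26 and 5.76 in inflamed samples, against 3.52, 4.19, 1.85 and 4.67 in untreated samples. Both groups held arrays near background there.

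At the committed step of glycolysis, Pfkp and Pfkfb3 rose. Phosphofructokinase adds the second phosphate to the sugar and is built from platelet (Pfkp), liver (Pfkl) and muscle (Pfkm) subunits. Pfkp, on chromosome 13, had 9.12, 8.80, 9.47 and 9.25 in inflamed samples, against 7.86, 7.70, 7.83 and 7.36 in untreated samples. The groups lay wholly apart. Pfkp averaged 9.16 ± 0.28 in inflamed samples and 7.69 ± 0.23 in untreated ones (SD, n = 4 each), a difference of 1.47 ± 0.34 or 2.78-fold with an adjusted p of 0.0324. Leaving out any 1 pair ended the call (adjusted p up to 0.133), as did averaging its 3 probe sets (0.0790).

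The other subunits did not pass. Pfkl had 7.34, 6.69, 7.20 and 6.50 in inflamed samples, against 7.20, 6.96, 6.92 and 7.06 in untreated samples, a difference of -0.10 ± 0.47 (adjusted p = 0.936). Pfkm had 5.67, 5.66, 4.24 and 5.04 in inflamed samples, against 5.35, 4.54, 5.89 and 5.75 in untreated samples, a difference of -0.22 ± 0.71 (adjusted p = 0.897). The groups overlapped for both genes, and the 95% intervals were -1.17 to 0.96 for Pfkl and -1.82 to 1.38 for Pfkm.

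Pfkfb3, on chromosome 2, encodes the kinase-rich form of the enzyme that makes and breaks fructose 2,6-bisphosphate. Its log2 signal was 9.64, 9.88, 9.69 and 10.52 in inflamed samples, against 6.89, 4.94, 6.08 and 6.20 in untreated samples. The inflamed arrays lay close together and the lowest of them stood well above the highest untreated array. Pfkfb3 averaged 9.93 ± 0.41 in inflamed samples and 6.03 ± 0.81 in untreated ones (SD, n = 4 each), a difference of 3.90 ± 0.45 or 15.0-fold with an adjusted p of 0.00154. Its 95% interval was 2.89 to 4.92, and within the pairs the difference was 2.74, 4.94, 3.61 and 4.32. The call held under all 13 alternative settings, and the other Pfkfb3 probe set gave 4.73 and also passed.

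Pfkfb4, a paralogue with the same paired activities, had 5.96, 4.86, 5.58 and 6.30 in inflamed samples, against 4.66, 2.71, 1.43 and 4.21 in untreated samples. Every inflamed array lay above every untreated array, and 1 untreated array was under background. The difference of 2.43 ± 0.77 did not pass (adjusted p = 0.0995), with an interval of 0.70 to 4.15. Pfkfb2, the form known from heart, had 9.06, 5.71, 7.38 and 5.45 in inflamed samples, against 6.38, 7.19, 5.31 and 6.51 in untreated samples, a difference of 0.55 ± 0.78 (adjusted p = 0.740). Its inflamed arrays spread on both sides of the untreated ones.

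**Figure D2:**
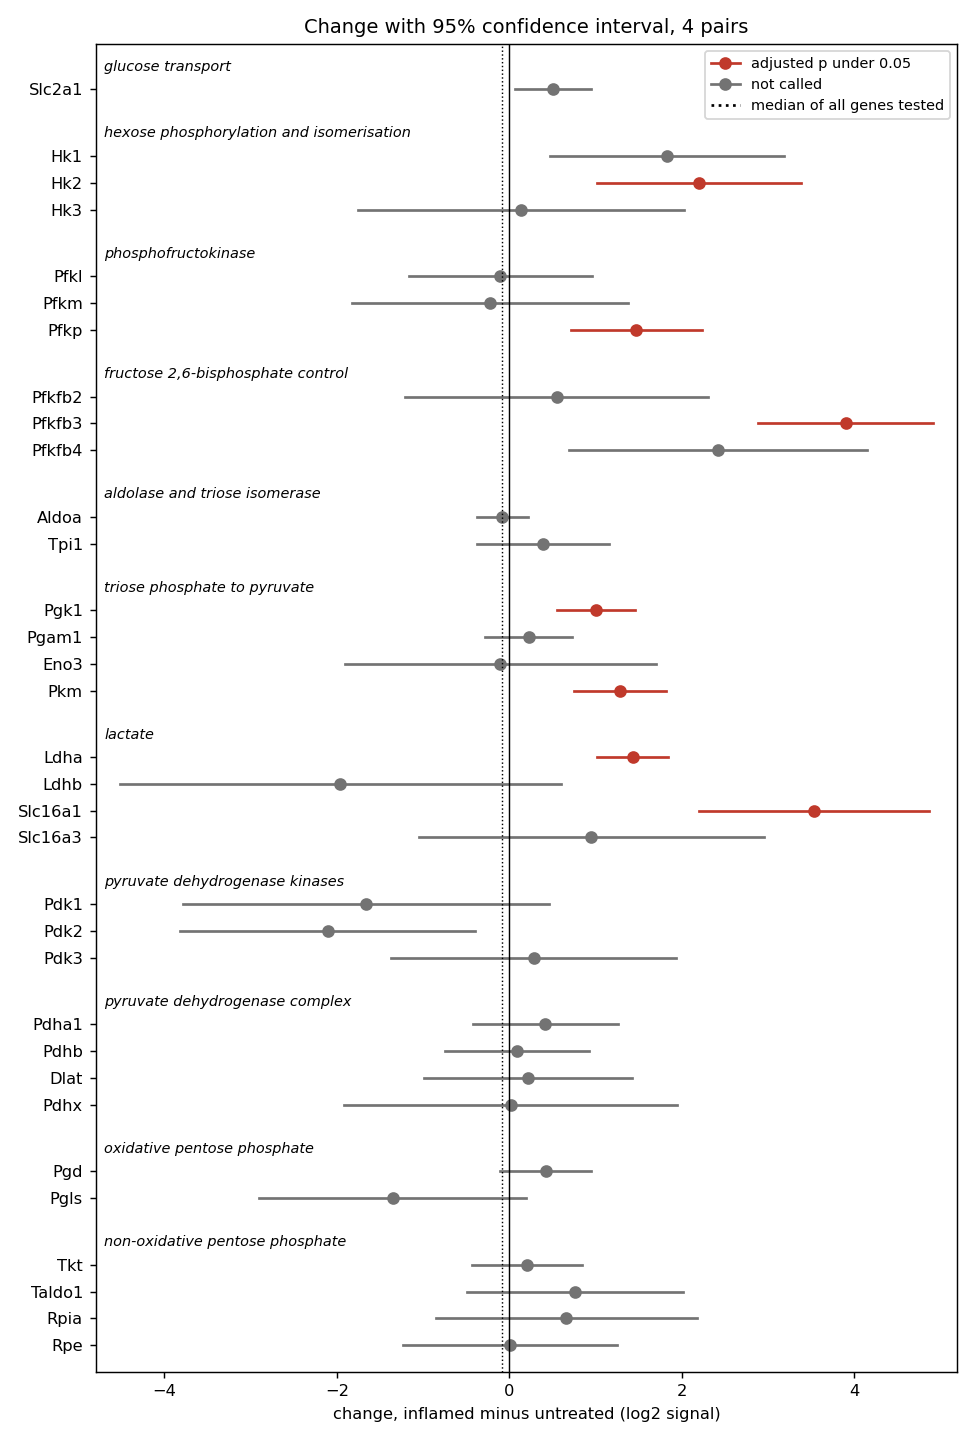
Difference of inflamed minus untreated arrays in log2 signal (horizontal axis) for the 33 tested members in pathway order, as points with their 95% confidence interval from 4 pairs, red where the adjusted p is under 0.05 and grey otherwise, with a dotted line at the median of all tested genes, -0.09. Pfkfb3 at 3.90 and Slc16a1 at 3.54 stand farthest to the right, and the intervals of the members drawn in grey are mostly wide and cross 0.

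In the lower part of glycolysis, Pgk1 and Pkm rose, and the aldolase, triose isomerase, mutase and enolase transcripts tested did not pass. Aldoa, the main aldolase, which cleaves the 6-carbon sugar into smaller 3-carbon sugars, had 11.00, 11.09, 11.25 and 11.63 in inflamed samples, against 11.15, 11.21, 11.24 and 11.68 in untreated samples. Same-pair arrays lay almost together, and the difference was -0.08 ± 0.13 with an interval of -0.38 to 0.22 (adjusted p = 0.790). Tpi1, which interconverts the 3-carbon products, had 9.81, 9.06, 8.35 and 10.04 in inflamed samples, against 9.67, 7.96, 8.91 and 9.18 in untreated samples, a difference of 0.39 ± 0.34 (adjusted p = 0.565). Aldoc, the brain aldolase, was under background on every inflamed array at -0.13, 1.51, 0.27 and 1.28, against 4.11, 1.84, 3.92 and 5.46 in untreated samples. The untreated arrays exceeded background in 3 of 4 samples, and their mean was at least 1.75-fold above the inflamed background, and without the filter the adjusted p was 0.0933.

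Gapdh oxidises glyceraldehyde 3-phosphate and was read by 3 control probe sets placed along its transcript. Near the 3′ end it had 12.01, 12.11, 12.08 and 12.73 in inflamed samples, against 10.73, 11.50, 10.97 and 11.52 in untreated samples. The groups lay apart there, as they did on the other probe sets, and the mean differences were 1.05 near the 3′ end, 1.36 in the middle and 1.85 near the 5′ end. With the control probe sets added to the fit, a setting chosen after the data were seen, the 3′ probe set differed by 1.05 ± 0.14 (adjusted p = 0.00305). The 3′ minus 5′ signal of Gapdh, a measure of transcript integrity and amplification reach, was 3.30, 3.26, 3.08 and 2.58 in inflamed samples, against 3.77, 4.16, 3.40 and 4.08 in untreated samples, and so was smaller in the inflamed sample of every pair. The same measure for the beta-actin control was -0.01, -0.12, -0.07 and -0.09 in inflamed samples. In untreated samples it was -0.15, -0.0008, -0.06 and -0.11, so the groups overlapped. The part of transcript integrity in the Gapdh differences was not tested.

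Pgk1, on chromosome X, makes the first ATP of the pathway. It had 10.83, 10.44, 10.64 and 10.54 in inflamed samples, against 9.92, 9.15, 9.68 and 9.67 in untreated samples. The groups lay apart in a narrow spread, with averages of 10.61 ± 0.16 in inflamed samples and 9.60 ± 0.32 in untreated ones (SD, n = 4 each). The difference was 1.01 ± 0.20 or 2.01-fold, with an adjusted p of 0.0184, and leaving out pair 1, 2 or 3 raised the adjusted p to between 0.0726 and 0.0783. Its other probe sets gave 0.84 and 1.04.

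Pkm, on chromosome 9, encodes the pyruvate kinase isoforms M1 and M2, which the chosen probe set is not known here to separate. It had 10.93, 10.65, 10.10 and 11.29 in inflamed samples, against 9.88, 9.69, 8.97 and 9.31 in untreated samples. The lowest inflamed array, pair 3, still exceeded the highest untreated array. Pkm averaged 10.74 ± 0.50 in inflamed samples and 9.46 ± 0.41 in untreated ones (SD, n = 4 each), and the difference was 1.28 ± 0.24 or 2.43-fold, with an adjusted p of 0.0129. Without pair 1 the adjusted p was 0.0506 and without pair 3 it was 0.05004, both just over the threshold.

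Pgam1, the mutase between Pgk1 and enolase, had 10.73, 10.44, 10.56 and 10.57 in inflamed samples, against 10.26, 10.95, 9.99 and 10.20 in untreated samples, a difference of 0.22 ± 0.22 (adjusted p = 0.618). Only untreated pair 2 reached the inflamed arrays. Eno3, the muscle enolase, differed by -0.10 ± 0.80 (adjusted p = 0.962) close to background. Eno2, the neuronal enolase, was dim, at 7.53, 0.34, 0.86 and 0.27 in inflamed samples, against 6.94, 0.24, 1.78 and 5.81 in untreated samples. It was bright in both samples of pair 1 and in untreated pair 4 and at or under background elsewhere.

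**Figure D3:**
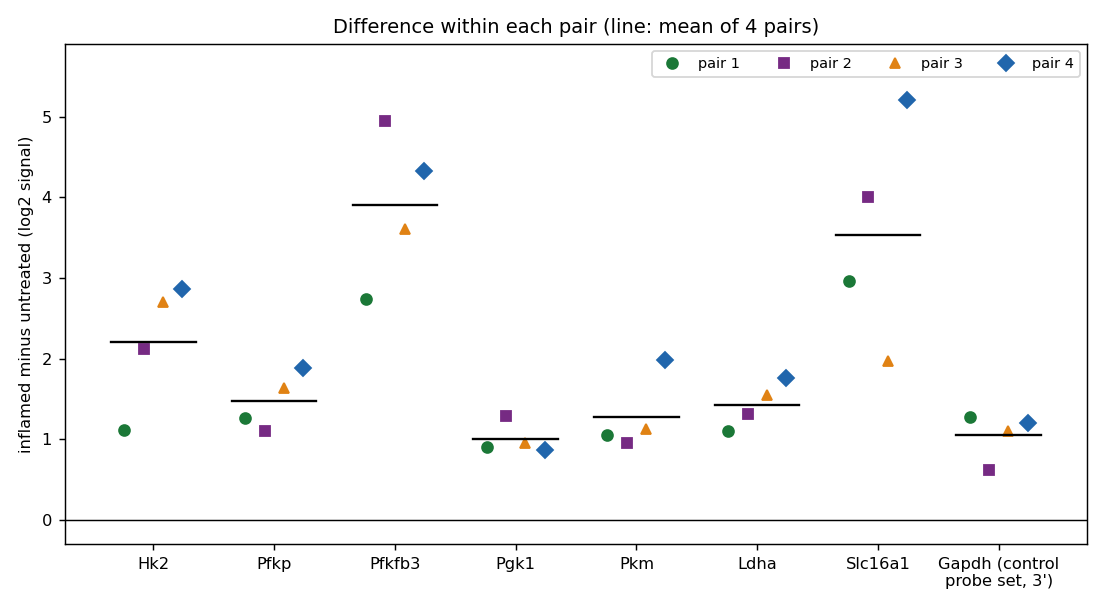
Difference of the inflamed minus the untreated array within each of the 4 pairs (vertical axis, log2 signal) for the 7 members that rose and for the 3′ control probe set of Gapdh, with a line at the mean of the pairs. All points lie above 0, from 0.62 for Gapdh in pair 2 to 5.21 for Slc16a1 in pair 4.

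On the way to lactate, Ldha and Slc16a1 rose. Ldha, on chromosome 7, encodes the lactate dehydrogenase subunit that favours lactate formation from pyruvate. Its log2 signal was 11.19, 11.58, 11.14 and 11.42 in inflamed samples, against 10.08, 10.27, 9.60 and 9.66 in untreated samples. The groups lay apart by more than the range of either. Ldha averaged 11.33 ± 0.20 in inflamed samples and 9.90 ± 0.32 in untreated ones (SD, n = 4 each), a difference of 1.43 ± 0.18 or 2.70-fold with an adjusted p of 0.00229.

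Slc16a1, on chromosome 3, encodes the monocarboxylate transporter MCT1, which moves lactate and pyruvate with a proton across the plasma membrane. It had 9.86, 8.61, 7.73 and 9.48 in inflamed samples, against 6.90, 4.60, 5.76 and 4.27 in untreated samples. The spread within each group was wide, and the groups still did not overlap. Slc16a1 averaged 8.92 ± 0.95 in inflamed samples and 5.38 ± 1.20 in untreated ones (SD, n = 4 each), a difference of 3.54 ± 0.59 or 11.6-fold with an adjusted p of 0.00857. Ldha and Slc16a1 kept their calls in 12 of 13 settings and missed the threshold without the intensity trend, at adjusted p-values of 0.120 for Ldha and 0.0679 for Slc16a1.

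Ldhb, the subunit that favours lactate oxidation, had 7.52, 5.76, 0.48 and 6.05 in inflamed samples, against 7.47, 6.60, 7.60 and 5.99 in untreated samples. Inflamed pair 3 was far under the rest and under background. The difference was -1.96 ± 1.14 (adjusted p = 0.362), and the 4 Ldhb probe sets gave -2.32 to -0.95. Slc16a3 encodes MCT4, the carrier of cells that export much lactate, and had 6.11, 3.99, 3.71 and 5.87 in inflamed samples, against 6.83, 2.02, 4.38 and 2.63 in untreated samples. The groups overlapped, and the difference was 0.95 ± 0.89 (adjusted p = 0.588). Only 2 untreated arrays exceeded background, against all 4 inflamed arrays.

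At the entry of pyruvate into the mitochondrion, no tested member passed. The 4 pyruvate dehydrogenase kinases phosphorylate and switch off the complex. Pdk2 had 8.25, 3.01, 5.24 and 5.56 in inflamed samples, against 7.79, 7.46, 7.55 and 7.67 in untreated samples. The untreated arrays were nearly equal, while the inflamed arrays spread widely and only that of pair 1 exceeded its partner. The difference was -2.10 ± 0.76, with an interval of -3.82 to -0.39, an unadjusted p of 0.0213 and an adjusted p of 0.140 in the limma fit.

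Pdk1, a kinase known to be induced by hypoxia, had 6.05, 2.51, 1.93 and 2.81 in inflamed samples, against 5.26, 5.55, 5.86 and 3.29 in untreated samples, a difference of -1.66 ± 0.94 (adjusted p = 0.349). Its probe sets disagreed, since the 3 past the filter ran from -1.66 to 2.35, so no direction can be given. Pdk3 differed by 0.28 ± 0.73 (adjusted p = 0.871). Pdk4, the kinase known to be raised by fasting, had 1.14, 4.89, 1.97 and -0.14 in inflamed samples, against 4.50, 2.95, 4.26 and 5.43 in untreated samples. All untreated arrays and only inflamed pair 2 exceeded background, and without the filter its adjusted p was 0.359.

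The differences of the 4 subunit genes of the complex were small, from 0.02 to 0.42. Pdha1, the catalytic alpha subunit, had 8.29, 7.82, 8.34 and 8.55 in inflamed samples, against 8.16, 7.48, 7.35 and 8.35 in untreated samples. It was higher in the inflamed sample of each pair, by 0.42 ± 0.37 on average (adjusted p = 0.575). Pdhb, the beta subunit, differed by 0.09 ± 0.37 (adjusted p = 0.925), and Dlat, the acetyltransferase core, by 0.21 ± 0.54 (adjusted p = 0.866). Pdhx, a further subunit of the complex, differed by 0.02 ± 0.86 (adjusted p = 0.996).

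In the pentose phosphate pathway, none of the 6 tested genes passed the limma threshold, nor an unadjusted p of 0.05. Of all genes, 22.0% lay under that unadjusted p. Pgls, which opens the lactone ring in the oxidative branch, had 3.68, 5.50, 5.00 and 4.25 in inflamed samples, against 5.79, 5.78, 5.63 and 6.63 in untreated samples. Every inflamed array lay below every untreated array, although the difference of -1.35 ± 0.69 did not pass (adjusted p = 0.295). Pgd, which makes the second NADPH of that branch, had 10.84, 9.38, 10.73 and 11.02 in inflamed samples, against 10.47, 9.66, 9.90 and 10.24 in untreated samples. Only pair 2 ran lower in the inflamed sample, the difference was 0.42 ± 0.24 (adjusted p = 0.340), and the 4 Pgd probe sets gave 0.23 to 0.55.

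The non-oxidative branch, which links ribose to glycolysis, gave differences of 0.01 to 0.76 with overlapping groups throughout. Tkt, transketolase, had 10.70, 10.10, 10.40 and 10.62 in inflamed samples, against 9.43, 10.49, 10.75 and 10.33 in untreated samples, a difference of 0.20 ± 0.28 (adjusted p = 0.735). Taldo1, transaldolase, differed by 0.76 ± 0.56 (adjusted p = 0.479), Rpia, the ribose 5-phosphate isomerase, by 0.66 ± 0.67 (adjusted p = 0.624), and Rpe, the ribulose epimerase, by 0.01 ± 0.55 (adjusted p = 0.995). Of these, Rpia was higher in the inflamed sample in 2 pairs, and Taldo1 and Rpe in 3.

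Different probe sets of a gene read different stretches of its transcript, and their agreement bears on how far 1 probe set stands for the gene. Of the 16 tested members with several probe sets past the filter, 11 had all differences of 1 sign. Over the 63 probe sets of members past the filter, 8 rose and none fell, where 615 rose and 508 fell of 19626 probe sets in all. Besides both Pfkfb3 probe sets, 1 of 3 for Pfkp and 1 of 3 for Pgk1 passed. Pfkl, Aldoa, Pdk1, Tkt and Rpe had probe sets of both signs. Probe sets whose names end in _x_at or _s_at, among them those chosen for Aldoa, Ldhb, Pgd and Tkt, can also bind related transcripts.

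**Figure D4:**
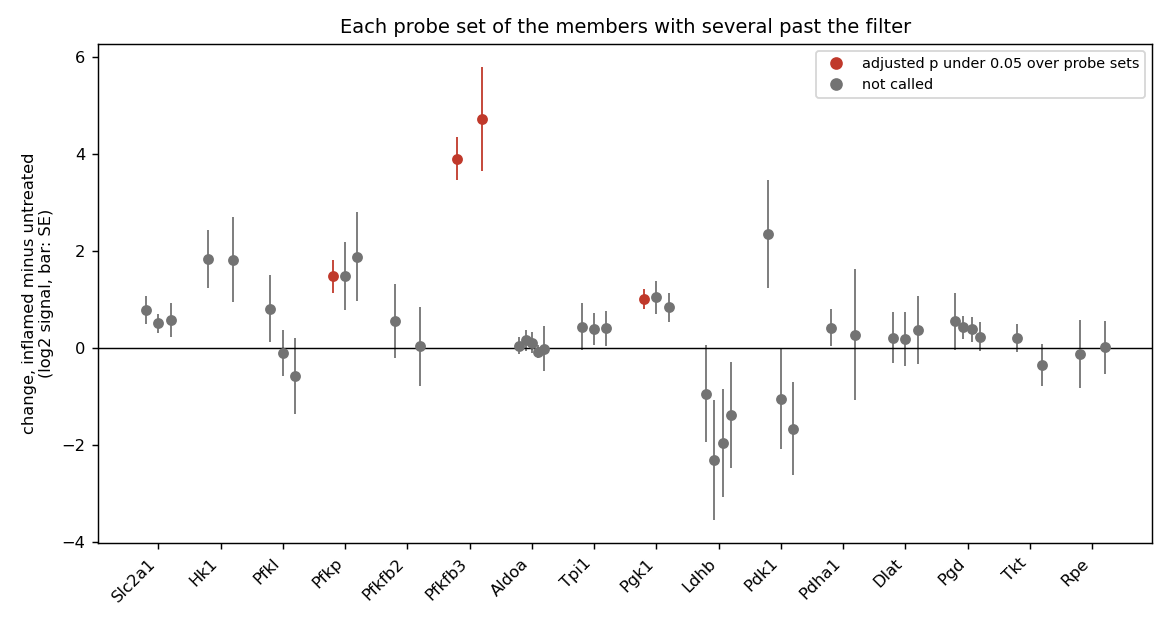
Difference of inflamed minus untreated arrays (vertical axis, log2 signal, bars are SE) for each probe set of the 16 members with several past the filter, red where the adjusted p over all probe sets is under 0.05. The 2 Pfkfb3 probe sets at 3.90 and 4.73 are both red, and those of Pdk1 spread from -1.66 to 2.35.

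The promoters of 4 genes that rose are shown with the core letters of the hypoxia response element, the element through which hypoxia-inducible factors are known to act on glycolytic genes. Pfkfb3, Ldha and Slc16a1 had the smallest adjusted p-values among the members, and Pgk1 is a textbook case of a glycolytic gene with such an element. Each sequence is the 250 bases before a start site from RefSeq (build GRCm38.p6), 5′ to 3′ on the strand of the gene, with capitals marking ACGTG or GCGTG on either strand (read as CACGT or CACGC on the reverse). Neighbouring matches run together in capitals, and CACGTG matches on both strands and counts as 2 matches. Of several start sites the one with the most matches is shown. Pfkfb3 lies at chr2:11502091-11502340 on the minus strand with 3 matches, Slc16a1 at chr3:104638414-104638663 on the plus strand with 4, Ldha at chr7:46845554-46845803 on the plus strand with 5, and Pgk1 at chrX:106186850-106187099 on the plus strand with 2.
Pfkfb3: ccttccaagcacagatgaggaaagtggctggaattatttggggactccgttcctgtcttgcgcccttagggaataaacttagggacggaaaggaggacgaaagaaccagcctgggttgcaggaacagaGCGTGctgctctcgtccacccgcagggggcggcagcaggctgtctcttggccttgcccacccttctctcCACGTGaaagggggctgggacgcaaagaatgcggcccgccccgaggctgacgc
Slc16a1: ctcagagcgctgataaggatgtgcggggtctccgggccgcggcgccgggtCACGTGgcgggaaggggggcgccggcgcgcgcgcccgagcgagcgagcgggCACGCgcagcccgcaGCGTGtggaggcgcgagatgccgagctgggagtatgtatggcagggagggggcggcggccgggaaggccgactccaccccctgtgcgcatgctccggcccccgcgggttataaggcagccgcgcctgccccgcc
Ldha: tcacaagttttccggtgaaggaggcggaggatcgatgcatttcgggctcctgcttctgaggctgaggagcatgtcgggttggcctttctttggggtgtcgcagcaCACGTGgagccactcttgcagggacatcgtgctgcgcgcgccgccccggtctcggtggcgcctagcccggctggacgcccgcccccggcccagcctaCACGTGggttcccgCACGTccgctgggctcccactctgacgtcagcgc
Pgk1: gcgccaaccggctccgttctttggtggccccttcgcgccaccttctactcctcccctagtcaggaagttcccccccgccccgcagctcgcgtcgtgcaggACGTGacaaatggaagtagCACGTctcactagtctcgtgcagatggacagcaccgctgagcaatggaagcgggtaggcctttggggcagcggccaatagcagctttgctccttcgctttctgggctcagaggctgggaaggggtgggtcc
At least 1 match was held by 9 of the 10 promoters of the 7 genes that rose (90%), by 46 of 61 promoters of all members (75.4%) and by 12679 of 32851 promoters in the RefSeq table (38.6%). At least 2 matches were held by 60% of the promoters of genes that rose, 34.4% of members' promoters and 16.7% of all. These promoters also differ in base composition, with a median GC content of 64.6% for the genes that rose, 59.6% for members and 52.4% for all promoters. Members that did not pass the threshold also held several matches at a start site, with 4 for Pfkfb2 and Pdk3 and 3 for Hk1, Pgam1 and Pdha1. A match describes letters only, and no binding was measured.

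The neighbouring pathways were read through 97 further genes, of which 67 were tested, 2 rose and 1 fell, with a median difference of 0.06. Over all tested genes 3.91% rose and 3.02% fell, shares that these counts do not exceed. Among 6 tested genes of glucose and sugar entry, Txnip fell and Arrdc4 rose. Both encode arrestin-like proteins known to lower glucose uptake and to be raised by glucose-sensing transcription factors. Txnip had 10.27, 10.24, 10.32 and 10.99 in inflamed samples, against 11.22, 11.67, 11.15 and 11.87 in untreated samples. The groups lay apart, with a difference of -1.03 ± 0.17 (adjusted p = 0.00761), which was -0.72 with each array centred on its median and no longer passed (adjusted p = 0.0520), nor did Txnip pass without the intensity trend (adjusted p = 0.204). Arrdc4 had 6.26, 9.88, 9.71 and 9.17 in inflamed samples, against 4.22, 7.40, 4.58 and 5.57 in untreated samples. Inflamed pair 1 lay within the untreated range, while all 4 pairs ran higher in the inflamed sample, by 3.31 ± 0.60 (adjusted p = 0.0116), and the call ended without pair 3 (adjusted p = 0.0573), with the mean of its probe sets (2.07, adjusted p = 0.0584) and without the intensity trend (adjusted p = 0.0789). Slc2a9, a urate and sugar transporter, differed by 0.20 ± 0.74 (adjusted p = 0.915).

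Among 8 tested genes of pyruvate entry and dehydrogenase regulation, Emb rose. Emb encodes embigin, an ancillary protein that brings monocarboxylate transporters to the membrane. It had 9.70, 8.38, 7.23 and 9.85 in inflamed samples, against 8.54, 4.11, 5.54 and 7.16 in untreated samples. The groups overlapped across pairs while every pair ran higher in the inflamed sample, by 2.45 ± 0.56 (adjusted p = 0.0318), and leaving out any 1 pair, the pair as a block or the intensity trend ended the call (adjusted p up to 0.132). Bsg, basigin, the more general partner of these transporters, differed by 0.03 ± 0.30 (adjusted p = 0.966).

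In the other lists no gene passed the limma threshold, and their counts at an unadjusted p under 0.05 are to be read against the 22.0% of all genes. Of the other enzymes of glycolysis and gluconeogenesis 0 of 13 tested passed (1 at an unadjusted p under 0.05), and Bpgm, which makes 2,3-bisphosphoglycerate, differed by -0.83 ± 0.31 (adjusted p = 0.161). The pentose and nucleotide sugar branch gave 0 of 9 (2 unadjusted), with Ugp2, which makes UDP-glucose, at 0.29 ± 0.36 (adjusted p = 0.706). Glycogen genes gave 0 of 9 (0 unadjusted), with the phosphoglucomutase Pgm2 at 0.77 ± 0.39 (adjusted p = 0.289). The citric acid cycle gave 0 of 22 (1 unadjusted) with differences of -1.39 to 1.20 and a median of 0.03, and Mdh2, mitochondrial malate dehydrogenase, differed by 0.19 ± 0.14 (adjusted p = 0.498).

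**Figure D5:**
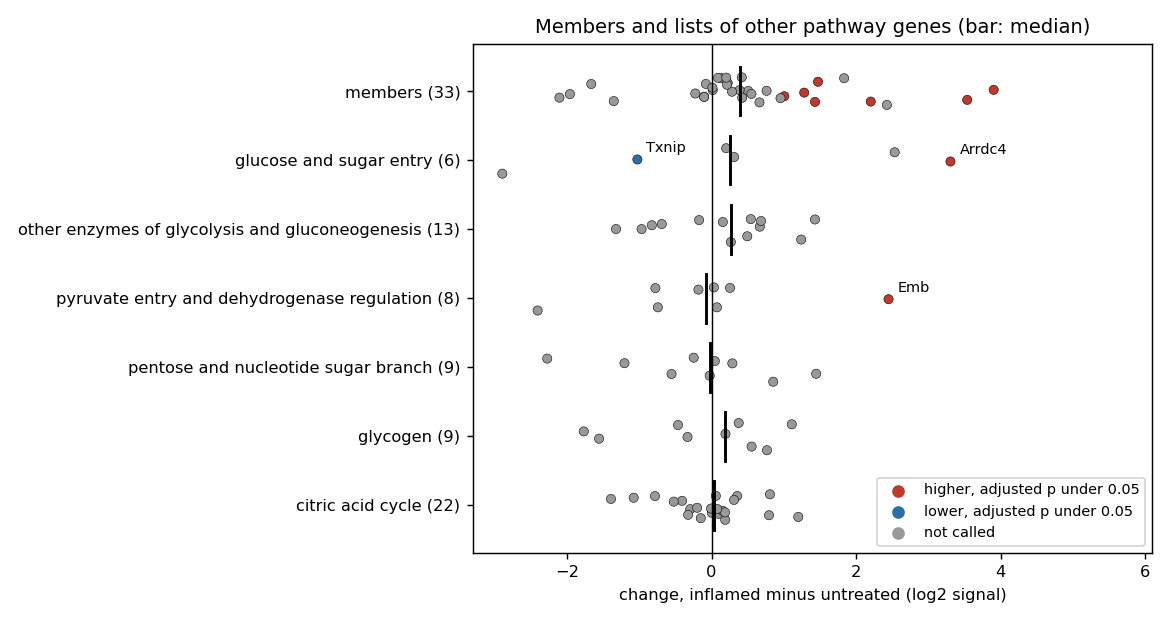
Differences of inflamed minus untreated arrays (horizontal axis, log2 signal) for the tested members and for the tested genes of each list of other pathway genes, 1 point per gene, with the number tested in brackets and a bar at the median, red for genes that rose, blue for genes that fell and grey for the rest. The members hold 7 red points and the 67 other genes hold 2 red and 1 blue, and the citric acid cycle genes centre on 0.03.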

How the data were processed

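Per the labels' protocols, the RNA was amplified by a single-primer isothermal method into cDNA and labelled with biotin. The authors deposited 1 linear intensity per probe set and array, produced by MAS5 according to the submitters' processing notes. Its version, scaling target and detection calls are not given in the sources used. Log2 signals were taken from the deposited intensities with no pseudocount. The medians of the arrays differed by at most 0.468 on the log2 scale, so the authors' scaling was kept. These medians followed the groups, from 3.27 to 3.44 on inflamed and from 3.56 to 3.74 on untreated arrays. The mean signal ran the other way and was higher on the inflamed array of every pair. The 64 control probe sets were left out, and so was each probe set whose mean log2 signal missed the median over all of them (3.30, a signal of 9.84). Of the probe sets naming 1 gene in GEO's platform annotation, the brightest on average stood for the gene.

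Testing over 10843 genes used limma 3.58.1 under R 4.3.3 (lmFit, then eBayes with trend), two-sided, with a fixed block for the pair and Benjamini-Hochberg adjustment over all genes. All adjusted p-values in the text come from it. The fit had 3 residual degrees of freedom and a median of 6.27 prior ones, so the SE is moderated towards genes of like intensity, and the number of arrays limits the precision. Samples were pools of 3 mice, so p-values refer to pools. Pairs were taken from the design text of the series, which gives shared days of sorting and extraction. Deviations from the group means correlated within pairs 1 to 4 at 0.16, 0.00, 0.08 and 0.03 across genes. The background ceiling was the 95th percentile of 27 bacterial control probe sets on each array, and where all arrays of a group lie under it a fold is given as a bound ("at least N-fold").

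All members were named by pathway step, and of other lists the genes past the threshold, up to 4 a list, and the one of highest mean signal that did not pass. The members, lists and tests were chosen with earlier results of these data known. Alternatives were the pair block, intensity trend, scaling, dim-signal filter, a pseudocount of 16, the choice of probe set and each pair left out. The fit was checked on simulated data. No arrays held identical values.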

Additional observations from a re-analysis of the deposited data

Results flagged for a closer look

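For each of the 37 measured members, the 4 inflamed and the 4 untreated arrays were examined for a single array far from the other 3, and 2 of the 74 groups had one, where chance alone gives about 1 in 20 groups. Eno2 on the inflamed arrays was flagged because the gap of inflamed pair 1, at 7.53, to the next array took up 0.919 of the group's whole range, with the others between 0.27 and 0.86. Eno2 lay under the filter on dim signals and was not tested. Pgls on the untreated arrays was flagged because the gap of untreated pair 4, at 6.63, took up 0.837 of the range, with the others between 5.63 and 5.79.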

How the results depend on the processing

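The number of members that rose, 7 with the settings of the text, was 1 without the intensity trend (94 of all genes higher and 47 lower in that setting) and 3 to 5 with 1 pair left out (all genes 208 to 306 higher and 126 to 198 lower), against 424 higher and 328 lower for all genes. Without the replicate block it was 6, with Hk2 lost, and the block changed no other member's call. Median centring gave 8 members, with Slc2a1 added, and 719 higher genes, so that 76.0% of its calls were higher, against 56.4% in the settings of the text. Averaging probe sets gave 6. Adding the Gapdh control probe sets, chosen after the data were seen, gave 8, and no setting called a member lower. Differences of genes that did not pass changed sign as follows, and the cause was not tested. Median centring gave Pfkl 0.20, Pfkm 0.079, Aldoa 0.22 and Eno3 0.20. Quantile normalization gave Eno3 0.22, Bsg -0.084 and Mdh2 -0.053, and a pseudocount of 16 gave Eno3 0.042. Averaging probe sets gave Pfkl 0.044, Aldoa 0.043, Tkt -0.074, Rpe -0.055 and Ugp2 -0.15. Single probe sets gave Pfkl 0.81, Aldoa 0.047, 0.10 and 0.15, Pdk1 2.35, Tkt -0.35, Rpe -0.12, Bpgm 0.25 and Ugp2 -0.62, -0.69 and -0.15. With 1 pair left out, ranges were -0.29 to 0.70 for Hk3, -0.23 to 0.049 for Pfkl, -0.67 to 0.25 for Pfkm, -0.16 to 1.23 for Pfkfb2, -0.43 to 0.38 for Eno3, -0.32 to 0.57 for Pdk3, -0.16 to 0.32 for Pdhb, -0.063 to 0.76 for Dlat, -0.33 to 0.78 for Pdhx, -0.15 to 0.40 for Tkt, -0.14 to 1.26 for Rpia, -0.30 to 0.44 for Rpe, -0.57 to 0.96 for Slc2a9 and -0.12 to 0.34 for Bsg. The dim members (Slc2a3, Aldoc, Eno2, Pdk4) lie where signal over background limits any difference, and with 4 pairs the intervals of most uncalled members span more than 1 on the log2 scale.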

Other observations

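Hk3 had a further probe set under the filter that ran apart from the tested one. It averaged 4.39 ± 1.20 on the log2 scale in inflamed samples (SD, n = 4), above background on all 4 arrays, against 0.80 ± 0.80 in untreated samples (SD, n = 4), under background on all 4. The inflamed signal was at least 2.69-fold above the untreated background, a value with no test. Slc2a3 was read by 4 dim probe sets, each of which was higher in the inflamed sample of 3 of 4 pairs and under background on every untreated array, with mean differences of 0.90 to 1.32 on the log2 scale. These probe sets were named after their values were seen.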
